A study of Homo sapiens with 8 samples.

Results

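The data describe the tyrosine tRNA of HEK-293 cells, tRNA-Tyr-GTA, both as the mature tRNA and at 3 of its intron-bearing genes. Members were chosen by reference name for the mature tRNA (every peak on a reference named tRNA-Tyr) and by position for the genes TRY-GTA2-1, TRY-GTA5-3 and TRY-GTA5-4. The 3 genes were chosen with their peak counts in these libraries known, so their levels are given as a description with no test. In all there were 32 member peaks, 8 on mature references and 24 at the gene loci, of 4746 peaks in the series. A peak is a cluster of cDNA start positions called in 1 library, and its count is the number of unique cDNA molecules that start in it.

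HEK-293 is a human embryonic kidney line, and the ALKBH1 KO cells were grown from single sorted cells after CRISPR editing. Which KO line gave these libraries is not stated in the sources used here. Fragmented total RNA from wild-type (WT) and ALKBH1 KO cells was treated with 2 mM of the aldehyde-reactive probe (ARP), which puts biotin on aldehydes such as 5-formylcytidine (f5C). Libraries were made from this RNA (input) and from the RNA held by streptavidin beads (IP), with 2 replicates for WT input, WT IP, KO input and KO IP and an f5C-containing oligo added to every sample. The study calls such replicates biological, and the labels do not say whether they came from separate cultures, so p-values measure only the spread between these samples.

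As background, tRNA-Tyr reads the tyrosine codons with the anticodon GTA, whose first base carries a queuosine derivative in the mature tRNA. Human tRNA-Tyr genes hold an intron directly after the base that follows the anticodon. A tRNA splicing endonuclease cuts it out and the RTCB ligase joins the 2 exons, so a transcript that still holds the intron has not been spliced. ALKBH1 is a dioxygenase that oxidises 5-methylcytidine to f5C, and its known tRNA substrates are mt-tRNA-Met and tRNA-Leu-CAA.

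The gene sequences below were read from the GRCh38 reference and show where the intron, in capitals, interrupts the 37-nt 5′ exon and the 36-nt 3′ exon. TRY-GTA2-1 lies at chr2:27050782-27050870 on the plus strand, TRY-GTA5-3 at chr14:20653099-20653192 on the minus strand and TRY-GTA5-4 at chr14:20663192-20663285 on the minus strand. RefSeq annotates each as a nuclear tRNA gene.

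TRY-GTA2-1: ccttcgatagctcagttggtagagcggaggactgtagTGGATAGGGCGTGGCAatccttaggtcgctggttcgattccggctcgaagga

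TRY-GTA5-3: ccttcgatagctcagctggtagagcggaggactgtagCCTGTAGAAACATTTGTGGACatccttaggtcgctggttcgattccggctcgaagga

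TRY-GTA5-4: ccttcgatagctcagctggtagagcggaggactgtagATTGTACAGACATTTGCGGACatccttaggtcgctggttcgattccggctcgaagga

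The exons of TRY-GTA5-3 and TRY-GTA5-4 were identical, and their 21-nt introns matched at 16 positions. The intron of TRY-GTA2-1 was 16 nt long. Its exons differed from those of TRY-GTA5-4 by C16T, where TRY-GTA5-4 is given first and positions count from the first base of the mature tRNA.

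Only 2 mature references had a peak in any library, tRNA-Tyr-GTA-4-1 and tRNA-Tyr-GTA-7-1. Without their introns, the 10 tRNA-Tyr genes whose sequence was read gave 8 distinct mature sequences of 73 nt. The stretch from position 26 to the 3′ end is shown for both listed references and for the common form, with the differing base in capitals, because it is the part a cDNA starting at position 26 could cover.

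TRY-GTA5-4: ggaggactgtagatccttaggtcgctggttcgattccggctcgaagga

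TRY-GTA4-1: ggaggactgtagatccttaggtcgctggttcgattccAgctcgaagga

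TRY-GTA7-1: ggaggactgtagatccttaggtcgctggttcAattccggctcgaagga

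TRY-GTA4-1 differed from the common form by G63A and TRY-GTA7-1 by G57A. From position 26 on, 2 of the 8 mature sequences were held by no other, and these were the 2 with a mature peak. The remaining 6 shared that stretch with another reference, and none of them had a mature peak. The counts on tRNA-Tyr-GTA-4-1 therefore cannot be read as the level of all tRNA-Tyr, and how the mapping treated reads shared between references was not tested.

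The summed peak counts per library lay between 48380 and 285539, and they are totals of listed peaks, not sequencing depth. The lowest listed count was 10 in every library, which was worth between 35.02 CPM (the peak count scaled to summed peak counts of 1000000) in KO input replicate 2 and 207 CPM in WT IP replicate 2. A region with no listed peak had fewer counts than that or was not clustered, and it was not taken as absent. ALKBH1 itself had no peak in any library, so these lists do not check the genotype. Replicates differed by more than sampling noise in every group, with a chi-square per degree of freedom between 3.93 and 6.52.

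Mature tRNA-Tyr-GTA-4-1 was recovered by the pulldown in WT cells and had no listed peak in either KO IP. The WT inputs held 31 and 37 counts (329 and 377 CPM) and the WT IPs 106 and 94 counts (1620 and 1943 CPM). The KO inputs held 39 and 52 counts (201 and 182 CPM). The order of the groups was WT IP, WT input and KO input, and no library of one group overlapped the next. The KO IP list minimum corresponded to 187 and 192 CPM, inside the range of the KO inputs. A KO IP level under 187 CPM would not have been listed, and a level near that of the KO inputs might not have been.

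**Figure D1:**
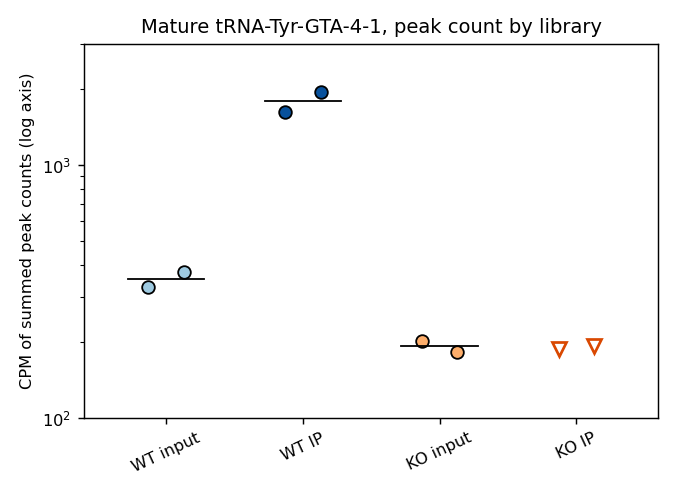
Peak counts on mature tRNA-Tyr-GTA-4-1 in CPM (log axis) for each library, with circles for listed peaks and a line at the mean of 2 replicates. Open triangles mark the list minimum of the KO IPs, which had no peak, and the 2 WT IPs lie above all other libraries at 1620 and 1943 CPM.

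The first comparison asked what the pulldown recovered in WT cells. Mean levels on tRNA-Tyr-GTA-4-1 were 353 ± 34.2 CPM in the WT inputs and 1782 ± 228 CPM in the WT IPs (SD, n = 2 each). edgeR's quasi-likelihood test over 243 regions gave a log2 fold change of 2.26 (SE 0.24), with a Benjamini-Hochberg adjusted p of 0.00226. In this fit 48.1% of the regions passed, so a call by itself was common. The size of the change ranked 19 among the 243 regions, whose median log2 fold change was -0.17. With the peaks of all tRNA-Tyr references summed, the log2 fold change was 2.08 (SE 0.29, edgeR adjusted p 0.00144) in a fit where 51.9% of the 189 rows passed.

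The second comparison asked whether the inputs already differed between the lines. The summed mature peaks were at 417 ± 55.8 CPM (SD, n = 2) for WT and 209 ± 11.7 CPM (SD, n = 2) for KO. The log2 fold change, WT over KO, was 1.10 (SE 0.22, edgeR adjusted p 0.0347), where 28.6% of 332 rows passed. For tRNA-Tyr-GTA-4-1 alone it was 0.93 (SE 0.21, edgeR adjusted p 0.0383), where 35.2% of 400 regions passed. Both calls were lost with DESeq2 (adjusted p 0.193 and 0.328) and when any 1 of the 4 input libraries was left out, with adjusted p between 0.0638 and 0.164. In bulk samples, fewer cells with an RNA and less of it per cell cannot be told apart.

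The remaining comparisons involve the KO IPs, where a region must have a peak in every library to enter the test, and tRNA-Tyr had none. With the summed mature peaks of both KO IPs placed at the list minimum, the WT IPs were at least 9.36-fold higher than the KO IPs (log2 3.23, replicate SD 0.19). The KO IPs were then at most 0.908 times the KO inputs (log2 -0.14, SD 0.08). The IP to input ratio was at least 4.71-fold higher in WT than in KO cells (log2 2.24, SD 0.28). These bounds assume that tRNA-Tyr-GTA-4-1 and tRNA-Tyr-GTA-7-1 together hold no more than 10 counts in each KO IP. Both are unlisted there, and if each held up to 10 the bounds would be weaker and the KO IPs could exceed the KO inputs. The first bound holds for tRNA-Tyr-GTA-4-1 alone at 10 counts, as the WT IPs list no other mature tRNA-Tyr peak. With the genome list totals as library sizes, an alternative chosen after seeing the data, the bounds became at least 5.81-fold, at most 0.965 times and at least 2.59-fold. An edgeR fit that sets unlisted regions to 10 gave log2 3.37 for the IPs. Mature tRNA-Tyr entered that fit through the WT IPs alone, where its counts exceed 10. Its direction was thus set in advance and no p-value is given for it. For the interaction the edgeR fit with this fill gave 2.36 (SE 0.25, adjusted p 0.00261), where 15.2% of 769 rows passed. That share includes rows filled with 10, and in the interaction fit without fills 26.8% of 138 rows passed. For KO IP against KO input it gave -0.57 (SE 0.12, adjusted p 0.139), where 52.0% of 658 rows passed. A constant has no spread, so the p-values of these fits are too small.

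A missing KO IP peak was uncommon among mature tRNAs, but few of those compared lay as near the list minimum. Of 38 anticodons with a mature peak in both WT IPs, Tyr-GTA was the only one with no peak in either KO IP. Its KO input mean was 209 CPM, close to the KO IP list minimum of 187 and 192 CPM. The other intron-bearing and queuosine anticodons described below had KO input means between 1920 and 16825 CPM, far above that minimum. Among 98 single mature regions with a peak in both WT IPs, 7 had none in the KO IPs. Of those 7, tRNA-Tyr-GTA-4-1 had a mean of 100.0 counts in the WT IPs, and the 6 others, on references for Ala-AGC, Asn-GTT and Thr-CGT, had between 12 and 36. Only tRNA-Tyr-GTA-4-1 and tRNA-Thr-CGT-3-1 of the 7 also had a peak in all 4 inputs.

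The extent of the mature peak differed between input and IP. The inputs covered the anticodon arm, from position 26 or 27 to between 43 and 45, with the anticodon at positions 34 to 36. The WT IP peaks began at position 11, in the D arm, and ended at 46 and 58. They held the whole input extent, so the peak was wider at both ends and did not move as a whole. The mean first position of the WT IPs was thus 15.5 nt further 5′ than that of the WT inputs. Over 92 mature regions with peaks in all 4 WT libraries the median difference in first position was 0 nt, and no other region reached as far 5′ by this measure. Whether peak extent grows with peak count was not tested.

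**Figure D2:**
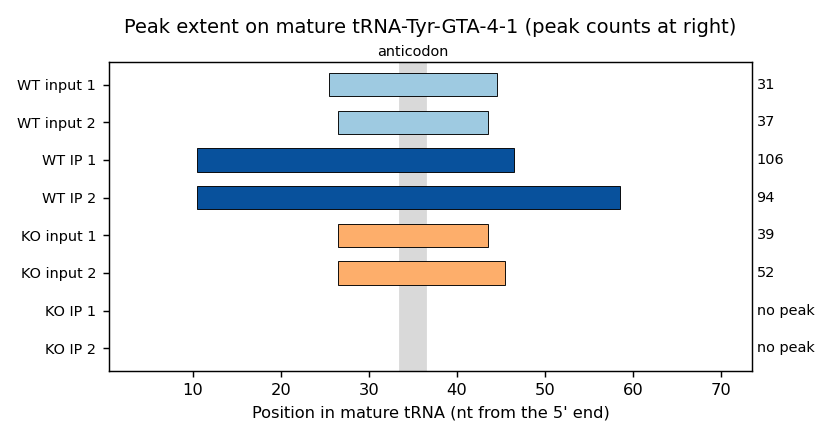
Extent of the peak on mature tRNA-Tyr-GTA-4-1 in each library along the tRNA (nt from the 5′ end), with the peak count at the right and the anticodon shaded. The input peaks span positions 26 to 45 at most, the WT IP peaks begin at position 11, and the KO IPs have no peak.

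The reference tRNA-Tyr-GTA-7-1 had a peak in 2 libraries only. WT input replicate 1 held 12 counts at positions 27 to 41 and KO input replicate 2 held 10 counts at positions 27 to 56. Both lay at or near the list minimum, and the exact Poisson 95% interval of the first count was 6.20 to 21.0, counting error only.

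The other anticodons whose human genes hold introns did not all move with tRNA-Tyr. Leu-CAA, a known ALKBH1 substrate, rose with pulldown in WT cells (log2 2.68, SE 0.16, edgeR adjusted p 8.36e-05) and fell by 1.26 with pulldown in KO cells (SE 0.24, adjusted p 0.00345), where 56.5% of 193 rows passed. Ile-TAT was higher in the IPs of both lines, by 1.00 on the log2 scale in WT (SE 0.25, adjusted p 0.0169) and by 0.87 in KO cells (SE 0.20, adjusted p 0.00728). Arg-TCT had log2 fold changes of -0.06 and -0.19 in WT and KO cells, with adjusted p of 0.799 and 0.336. The interaction passed for Leu-CAA (log2 4.32, SE 0.29, adjusted p 1.72e-05), and for Ile-TAT and Arg-TCT it had adjusted p of 0.262 and 0.128, in a fit where 26.8% of 138 rows passed.

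The other queuosine anticodons gave smaller differences. His-GTG was higher in the IPs of both lines, with log2 fold changes of 0.49 in WT (SE 0.14, edgeR adjusted p 0.0273) and 0.68 in KO cells (SE 0.15, adjusted p 0.00576). Asp-GTC fell by 1.16 in the WT IPs (SE 0.20, adjusted p 0.00327) and had a log2 fold change of -0.17 in the KO IPs (adjusted p 0.516). Asn-GTT had log2 fold changes of 0.02 and 0.07, with adjusted p of 0.971 and 0.786. None of the 3 interactions passed, with adjusted p between 0.132 and 0.491, in the fit where 26.8% of 138 rows passed.

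The gene loci collect reads left over from the mapping to mature tRNA that then had a unique place in the genome. All 3 genes had a peak in all 8 libraries, unlike the mature tRNA. Ratios are differences of mean log2 CPM, with the spread of the replicates as SD. Scaling by TMM in place of the summed peak counts would add 0.32 to every WT IP to WT input log2 ratio, 0.22 to WT IP over KO IP, and 0.38 to the difference between lines, and take 0.06 from KO IP over KO input and 0.16 from WT input over KO input. Scaling by the genome list totals would shift these ratios by -0.78, -0.69, -0.86, 0.09 and 0.17 in the same order.

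TRY-GTA2-1 showed high counts in the WT IPs alone. It held 13 and 13 counts in the WT inputs (138 and 133 CPM) and 212 and 184 in the WT IPs (3241 and 3803 CPM). It held 32 and 42 counts in the KO inputs (165 and 147 CPM) and 18 and 19 in the KO IPs (337 and 364 CPM). The WT IPs were 25.95-fold above the WT inputs (log2 4.70, SD 0.17) and the KO IPs 2.25-fold above the KO inputs (log2 1.17, SD 0.14). The groups did not overlap, but the 2 kinds of input differed by only -0.20 on the log2 scale (SD 0.12), and 13 counts have an exact Poisson 95% interval of 6.92 to 22.2. The IP to input ratio was 11.5-fold higher in WT than in KO cells (log2 3.53, SD 0.22). With the genome list totals as library sizes this became 6.33-fold (log2 2.66), and the WT IPs were 15.2-fold above the WT inputs.

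TRY-GTA5-4 differed from TRY-GTA2-1 in that its level also differed between the inputs and its IP recovery was high in both lines. The WT inputs held 39 and 41 counts (414 and 418 CPM), against 10 and 15 for the KO inputs (51.4 and 52.5 CPM). The WT IPs held 420 and 299 counts (6421 and 6180 CPM) and the KO IPs 75 and 78 (1404 and 1496 CPM). The WT inputs were 8.01-fold above the KO inputs (log2 3.001, SD 0.02), and the 10 counts of KO input replicate 1 were at the list minimum. The KO input counts of 10 and 15 have exact Poisson 95% intervals of 4.80 to 18.4 and 8.40 to 24.7. The SDs of ratios to the KO inputs show only how close the replicates lay. They are not a measure of this counting error. The IP to input ratio was 15.1-fold in WT (log2 3.92, SD 0.04) and 27.9-fold in KO cells (log2 4.80, SD 0.07). The difference between lines thus had the opposite sign to that of TRY-GTA2-1, at -0.88 (SD 0.08), and rested on the low KO input counts. It was -1.74 with the genome list totals as library sizes, where the WT IP to input ratio was 8.84-fold, and -0.50 with TMM-scaled sizes.

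TRY-GTA5-3, whose exons match those of TRY-GTA5-4, had the lowest IP counts of the 3. The WT inputs held 12 and 19 counts (127 and 194 CPM), against 11 and 16 for the KO inputs (56.6 and 56.0 CPM). The WT IPs held 40 and 38 counts (611 and 785 CPM) and the KO IPs 10 and 12 (187 and 230 CPM), which overlapped the WT inputs in CPM. The 10 counts of KO IP replicate 1 were at the list minimum. The IP to input ratio was 4.41-fold in WT (log2 2.14, SD 0.50) and 3.69-fold in KO cells (log2 1.88, SD 0.21). The difference between lines, 0.26 on the log2 scale, was smaller than its replicate SD of 0.54 and became -0.60 with the genome list totals as library sizes.

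**Figure D3:**
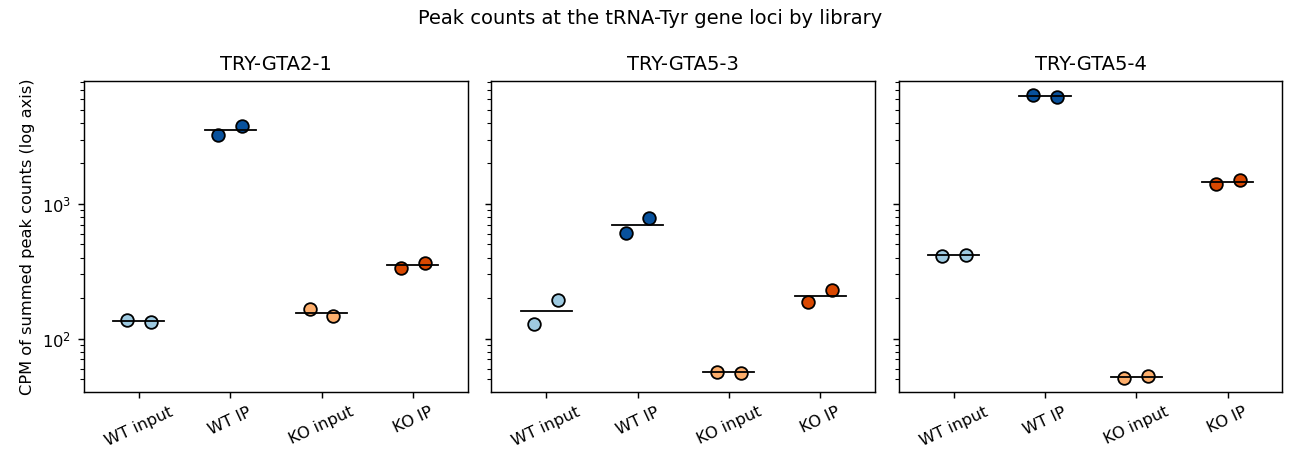
Peak counts at the 3 tRNA-Tyr gene loci in CPM (log axis) for each library, with a line at the mean of 2 replicates. The WT IPs are the highest group at each locus, and the KO inputs of TRY-GTA5-4, at 51.4 and 52.5 CPM, lie below its KO IPs at 1404 and 1496 CPM.

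The peaks at TRY-GTA2-1 were narrow in every IP. In the 4 IPs they were 22 to 24 nt long and covered the last 1 or 2 bases of the intron and the 3′ exon up to mature position 58 or 59. The 4 input peaks were 59 to 92 nt long, and 3 of them began 10 nt upstream of the gene in the 5′ leader, which is removed from the mature tRNA. At TRY-GTA5-3 both KO IP peaks were 22 nt long and began at the last intron base, while WT IP replicate 2 and 3 of the 4 inputs extended 8 nt into the leader. At TRY-GTA5-4 both WT inputs and both WT IPs extended 8 nt into the leader, and no KO library did.

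A cDNA that starts inside the 3′ exon holds no intron base, so these peaks locate cDNA starts at intron-bearing genes and do not measure how much RNA kept its intron. The 3 genes have identical 3′ exons, so bases of that exon alone cannot give a read a unique place. Peaks mark where cDNAs start, and how far the reads ran past a gene's 3′ end is not listed. Of 38 peaks with known position at all tRNA-Tyr genes, none extended past the 3′ end of its gene, 21 ended at mature positions 57 to 60, and 12 ended exactly at 58. Position 58 carries 1-methyladenosine in most cytosolic tRNAs, a mark that ALKBH1 is reported to remove. Whether that base set the peak ends was not tested. This window held the ends of 9 of 18 input peaks, 8 of 14 WT IP peaks and 4 of 6 KO IP peaks.

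**Figure D4:**
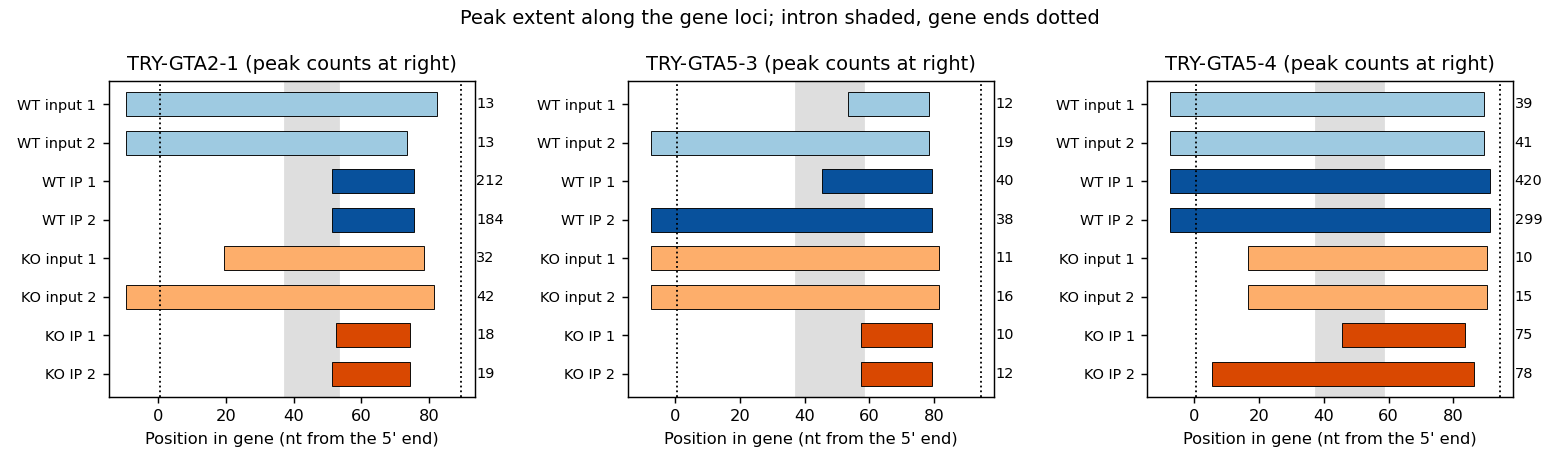
Extent of each library's peak along the 3 genes (nt from the gene's first base, with 0 and below in the leader), with the intron shaded, the gene ends dotted and peak counts at the right. The IP peaks of TRY-GTA2-1 are 22 to 24 nt long and sit on the 3′ exon, and the WT peaks of TRY-GTA5-4 begin in the leader.

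Outside the intervals of the rule, 6 more of the 12 annotated tRNA-Tyr genes had a peak, and none of the 6 had one in a KO IP. TRY-GTA1-1 held 154 and 200 counts in the WT IPs (2354 and 4134 CPM), 10 and 12 in the KO inputs (51.4 and 42.0 CPM), and no peak in the WT inputs or KO IPs. At the list minimum its WT IPs were at least 29.98-fold above the WT inputs and at least 16.5-fold above the KO IPs. TRY-GTA8-1 held 54 and 73 counts in the WT IPs (826 and 1509 CPM), 26 and 36 in the KO inputs, and 12 in WT input replicate 1. Its WT IPs were at least 5.89-fold above the KO IPs.

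TRY-GTA5-1 held 36 and 50 counts in the WT IPs and TRY-GTA3-1 27 and 32, with bounds of at least 3.98-fold and 2.76-fold over the KO IPs. In KO input replicate 2 they held 20 and 18 counts. TRY-GTA4-1 had 17 counts in WT IP replicate 1 alone and TRY-GTA6-1 had 11 in WT IP replicate 2 alone. Both genes thus rest on 1 library and lie near the list minimum. The number of tRNA-Tyr genes with a peak was 8 for each WT IP library and 3 for each KO IP library, against 4 and 3 before pulldown for WT and 5 and 7 for KO. Having no KO IP peak was no rarer at other tRNA genes. It held for 4 of 7 tRNA-Tyr genes with a peak in both WT IPs (57.1%) and for 50 of 85 other tRNA gene loci (58.8%).

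Among 29 nuclear tRNA gene loci with a peak in all 8 libraries, TRY-GTA2-1 had the second highest WT IP to input ratio and TRY-GTA5-4 the highest KO IP to input ratio. The median over the 26 loci other than tRNA-Tyr was 0.69 in WT and 0.47 in KO cells on the log2 scale. The 4 other loci whose length shows an intron were TRL-CAA1-1, TRL-CAA1-2 and TRL-CAA3-1, for tRNA-Leu-CAA, and TRR-TCT1-1, for tRNA-Arg-TCT. They had WT IP to input ratios between 3.12 and 4.59 and KO ratios between 0.15 and 0.97. TRY-GTA2-1, at 4.70 and 1.17, lay just beyond that range in both lines. Of the 22 loci without an intron length, 13 had a WT ratio above 0, and the median was 0.35. Among these 22, TRF-GAA1-1 had the highest WT ratio of all 29 loci, at 5.21, with 2.54 in KO cells. TRC-GCA2-2, also without an intron length, had 3.55 and 1.28. TRY-GTA5-4 and TRY-GTA5-3 lay near or below the line of equal ratios, and no test was made of these differences because the loci were chosen with their values known.

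**Figure D5:**
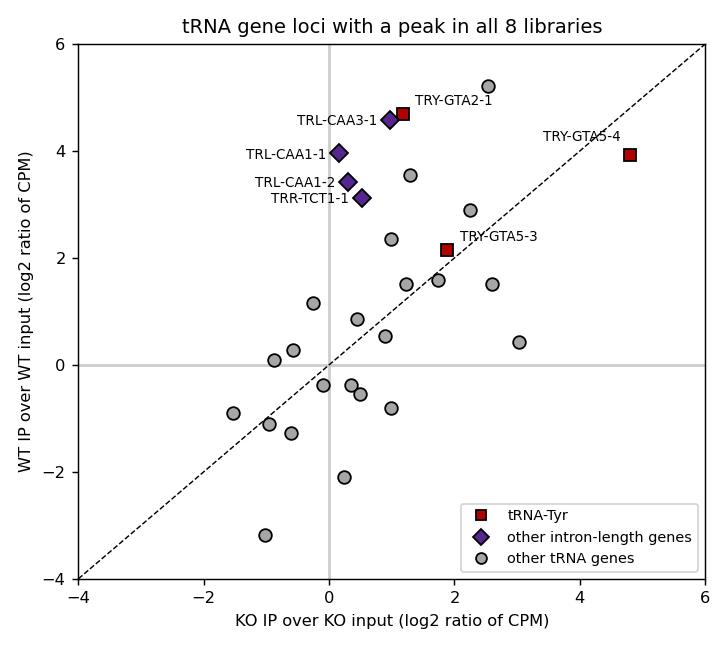
IP to input log2 ratio of CPM in WT (vertical) against KO cells (horizontal) for the 29 tRNA gene loci with a peak in all 8 libraries, with the dashed line at equal ratios. TRY-GTA2-1 (4.70 in WT, 1.17 in KO) sits near the 4 other intron-length genes, and TRY-GTA5-4 (3.92 and 4.80) sits below the line. The highest WT ratio, 5.21, belongs to TRF-GAA1-1, which has no intron length.

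The profile over the 8 libraries was compared with 183 other regions that had a peak in every library, by Pearson's r of log2 CPM. As the same libraries and totals enter both values, r is a description. TRY-GTA2-1 was most like TRL-CAA3-1 (r = 0.996), TRR-TCT1-1 (0.987) and TRL-CAA1-2 (0.980). TRY-GTA5-3 was most like the alanine gene TRA-AGC3-1 (0.961), the phenylalanine gene TRF-GAA1-1 (0.960) and mature tRNA-Phe-GAA-1 (0.959). TRY-GTA5-4 was most like the glutamate gene TRE-TTC1-2 (0.985), mature tRNA-Phe-GAA-1 (0.948) and mature tRNA-Arg-TCG-1-1 (0.946). Over the 6 libraries where it had a peak, mature tRNA-Tyr was most like TRF-GAA1-1 (0.986), tRNA-Phe-GAA-1 (0.980) and tRNA-Leu-CAA-1 (0.979).

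Genes of proteins that splice, charge or modify tRNA-Tyr were also searched for peaks. They were the splicing endonuclease subunits TSEN15, TSEN34 and TSEN54 with the kinase CLP1, the ligase RTCB with DDX1, ZBTB8OS, RTRAF and FAM98B, the tyrosyl-tRNA synthetase YARS1, the pseudouridine synthase PUS7 and the 5-methylcytidine methyltransferase NSUN2. None of these 12 had a listed peak on either strand in any library, which says only that none reached the list minimum.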

How the data were processed

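The authors ran the iCount primary analysis, which collapsed PCR duplicates by molecular identifier, aligned with STAR 2.7.0f to tRNA and rRNA first, and sent the rest to GRCh38, where multimapping reads were dropped. Paraclu called peaks per library. The deposited value is a cDNA count per peak with no normalization, so low regions are missing rather than 0. The GRCh38 FASTA held 25 of the 26 reference names used by the genome lists, and every peak on these ended within its length.

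The members and lists were chosen with earlier results of these data known. Named were all tRNA-Tyr references and genes with a peak, and the 3 regions most like each. Introns were located by the anticodon and the pairing of positions 27 to 31 with 39 to 43. Other tRNA genes were taken to hold one above 84 nt (95 for Leu and Ser). Sequences came from the GRCh38 FASTA, gene positions from RefSeq (patch 14) and protein genes from GENCODE release 44. One gene of the protein list is not reported here.

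Overlapping peaks (at least 1 nt, same strand) were merged into 1373 regions, and CPM used the summed peak counts of a library. Regions with a peak in every compared library were tested in edgeR 4.0.16 (R 4.3.3, TMM, quasi-likelihood, two-sided, Benjamini-Hochberg adjusted p under 0.05), also with mature peaks summed per anticodon. SE is the log2 fold change divided by the square root of F. In the 3 comparisons with KO IPs, tRNA-Tyr could not enter the planned test, and values at the list minimum of 10 replaced it. DESeq2 1.42.0, other scalings, overlaps, count limits, fills, the replicate block and leaving out each library were alternatives, and TMM-scaled sizes and genome list totals for those bounds were added after seeing the data. Python 3.11.15 and matplotlib 3.10.9 were used.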

Additional observations from a re-analysis of the deposited data

Results flagged for a closer look

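The IP to input ratio of mature tRNA-Tyr was flagged because it differed between the lines in a test of the difference itself. With unlisted regions set to 10 counts, the edgeR interaction was 2.36 on the log2 scale (SE 0.25, adjusted p 0.00261), higher in WT. Both KO IPs entered at the constant, which has no spread of its own, so this p is too small. No group had enough libraries for a search for single libraries that stand apart.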

How the results depend on the processing

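Mature tRNA-Tyr in WT IP against WT input passed under every alternative run, with log2 fold changes between 1.89 and 2.40 for the sum and between 2.19 and 2.55 for tRNA-Tyr-GTA-4-1. The input difference did not: with DESeq2 it was 1.15 (adjusted p 0.193) for the sum and 1.00 (0.328) for tRNA-Tyr-GTA-4-1, and without 1 library it ranged from 0.96 to 1.24 and from 0.80 to 1.03, none past the threshold. A mean count of at least 50 left no input value. Regions called moved from 117 of 243 in WT IP against WT input to 336 of 566 with unlisted regions at 0 and 270 of 566 at 10, and from 141 of 400 between the inputs to 363 and 248 of 743 with the same fills, 64 of 400 with DESeq2, and 0 to 82 in edgeR without 1 library, where 149 to 190 had an unadjusted p under 0.05. The bounds moved to 3.45 (WT IP over KO IP) and 2.61 (interaction) with TMM-scaled sizes, and to 2.54, 1.37 and -0.052 (KO IP over KO input) with genome list totals. Without 1 library they ranged from 3.10 to 3.36, from 2.10 to 2.37 and from -0.20 to -0.08. With unlisted regions at 0 the fits gave 9.76, 9.67 and -7.99 (KO IP over KO input), values set by the prior count and no bounds, and KO IP over KO input was -0.57 at 10. DESeq2 and the other fits could not be made for these 3, as they need a KO IP peak.

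Gene locus log2 ratios moved with scaling and kept their sign wherever they exceeded their replicate SD. With TMM-scaled sizes TRY-GTA2-1 was 5.02 (WT IP over WT input), 3.54 (WT IP over KO IP), -0.36 (WT input over KO input) and 3.90 (difference between lines), and with genome list totals 3.92, 2.64, -0.027 and 2.66. TRY-GTA5-4 was 4.24, 2.34, 2.84 and -0.50 with TMM-scaled sizes and 3.14, 1.43, 3.18 and -1.74 with genome list totals, which also gave 4.89 for KO IP over KO input. TRY-GTA5-3 was 1.37 (WT IP over WT input), 1.05 (WT IP over KO IP) and -0.60 (difference between lines) with genome list totals. The cause was not tested.

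Replicate numbers were shared across groups, and deviations of same-numbered libraries correlated between -0.05 and 0.49 over 186 regions, highest for WT input and WT IP. Input and IP came from the same probe-treated RNA by the protocol, but no label ties the number to a preparation, and the fits without the block were kept. With the replicate block the sum was 2.07 in WT IP against WT input and 1.09 between the inputs, tRNA-Tyr-GTA-4-1 was 2.26 and 0.93, and 136 and 208 regions were called. Summed per anticodon, the block moved the calls between the inputs from 95 to 182 of 332. The block could not be fitted for mature tRNA-Tyr in the comparisons with KO IPs, where it has no peak, and the gene loci were not tested.

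Low counts limit the inputs and the KO IPs, where 10 to 19 counts stand behind several locus values.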
